A study of Homo sapiens with 11 samples.

Results

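PMVK, RRBP1 and TXNDC5 are 3 genes chosen from 19806 that are listed in the RNA-seq tables of both A549 and H1299 cells, because each fell with a single shMETTL3 library number in both lines. PMVK and RRBP1 were low in library 2 and TXNDC5 in library 1, while METTL3 itself was low in both. The genes were picked by these very levels, so their own differences are described below without a test, and tests are given only for other genes. A549 (lung adenocarcinoma) and H1299 (large-cell lung carcinoma) are established human lung cancer lines. For each line the RNA-seq holds 1 library from cells with an shRNA against GFP (shGFP, the control) and 2 libraries from cells with an shRNA against METTL3, numbered 1 and 2, so 6 libraries in all. All cells thus carry an shRNA. The labels do not say whether a number stands for a hairpin, a culture or a repeat, nor whether control and knockdown cells came from separate cultures. The p-values below therefore measure only the spread between these libraries, which may be technical. Neither line repeats a library number or its control. For a difference between the numbers, or of 1 number from shGFP, that spread is the disagreement between A549 and H1299.

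Phosphomevalonate kinase (PMVK) adds the second phosphate to mevalonate, between mevalonate kinase (MVK) and mevalonate diphosphate decarboxylase (MVD), in the route that supplies isoprenoids and cholesterol. RRBP1, also called p180, is an endoplasmic reticulum (ER) membrane protein that binds ribosomes and microtubules and is abundant in secretory cells. TXNDC5, also called ERp46, is a protein disulfide isomerase of the ER lumen with thioredoxin-like domains, which helps secreted proteins to form disulfide bonds. METTL3 is the catalytic subunit of the complex that writes N6-methyladenosine (m6A) into mRNA.

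The 250 bases before a transcription start are shown for each gene, because PMVK and RRBP1 moved together and TXNDC5 moved apart from them. The sequences are RefSeq's, on GRCh38.p14, and all 3 lie on the minus strand: PMVK at chr1:154936720-154936969, RRBP1 at chr20:17682243-17682492 and TXNDC5 at chr6:7910789-7911038. Capitals mark CCAAT boxes (CCAAT) and GC boxes (GGGCGG), searched on both strands.
PMVK: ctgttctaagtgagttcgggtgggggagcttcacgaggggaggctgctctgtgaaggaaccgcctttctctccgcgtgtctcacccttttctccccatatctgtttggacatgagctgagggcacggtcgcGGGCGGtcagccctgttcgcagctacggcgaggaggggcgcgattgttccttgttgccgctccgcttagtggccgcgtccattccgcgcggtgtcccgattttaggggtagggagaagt
RRBP1: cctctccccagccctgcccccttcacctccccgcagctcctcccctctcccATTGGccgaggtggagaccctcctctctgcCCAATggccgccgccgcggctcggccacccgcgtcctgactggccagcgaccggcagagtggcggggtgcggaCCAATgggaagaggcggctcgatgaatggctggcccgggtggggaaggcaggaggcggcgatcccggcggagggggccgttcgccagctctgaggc
TXNDC5: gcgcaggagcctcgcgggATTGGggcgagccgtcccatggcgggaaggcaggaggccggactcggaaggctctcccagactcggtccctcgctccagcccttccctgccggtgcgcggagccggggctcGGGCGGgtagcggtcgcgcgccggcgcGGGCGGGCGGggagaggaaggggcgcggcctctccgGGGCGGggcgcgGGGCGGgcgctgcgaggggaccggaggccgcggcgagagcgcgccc
The RRBP1 stretch held 3 CCAAT boxes and 0 GC boxes. The PMVK stretch held 1 GC box and 0 CCAAT boxes, so these co-moving genes had no searched motif in common. The TXNDC5 stretch held 5 GC boxes, of which 2 overlap, and 1 CCAAT box on the opposite strand. A CCAAT box was present in 32.0% and a GC box in 42.6% of 35116 such stretches. The sterol regulatory element (TCACNCCAC) was in 0.883% of all stretches and matched none of the 3 shown. GC content was 61.2% for PMVK, 73.2% for RRBP1 and 80.8% for TXNDC5, against a median of 58.0% over all. TXNDC5 has a second listed start, not shown, with 3 GC boxes.

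Values are the deposited signal, which is reads in a gene divided by 1 factor per library. The libraries held 14447379 to 26351309 reads in genes. What the factors rest on is not given, so levels are compared only within a line. The precursor of ribosomal RNA, RNA45S5, took 23.1, 20.5 and 25.4% of the reads in H1299 (shGFP, library 1, library 2). In A549 it took under 0.285%. The epithelial keratin KRT8 stood at 8420 to 12213 in A549 and at 113 to 189 in H1299, and the epithelial cadherin CDH1 at 284 to 646 and at 1.0 to 1.1. KRT19 was listed at 0 in all 3 H1299 libraries. A549 library 1 stood apart, with 5 epithelial markers summing to 26155 against 18701 in shGFP and 18102 in library 2. The leukocyte marker PTPRC reached at most 0.7 in any library. The summed fibroblast markers were 62.4, 102.5 and 75.9 in A549 (shGFP, library 1, library 2) and 13.7, 32.0 and 35.2 in H1299.

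METTL3 was lower than the control in all 4 knockdown libraries, with either number. It stood at 557 in A549 shGFP, 231 in library 1 and 232 in library 2. The corresponding values in H1299 were 271, 123 and 100.2. The ratio of library 1 to library 2 was 0.997 in A549 (95% exact interval 0.896 to 1.11) and 1.23 in H1299 (1.09 to 1.39). The intervals here and below are Clopper-Pearson intervals of the read counts and cover counting error only. Any difference between the numbers at PMVK, RRBP1 or TXNDC5 thus stood beside a METTL3 level that was equal in A549 within counting error and somewhat lower in library 2 in H1299.

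PMVK was low in library 2 of both lines and near the control in library 1. In these bulk libraries, fewer cells that express a gene and less RNA per cell cannot be told apart. In A549 its level was 268 in shGFP, 260 in library 1 and 97.2 in library 2. In H1299 it was 278, 302 and 85.8. Library 2 held 36.2% of the control in A549 (95% exact interval 31.8 to 41.1%) and 30.8% in H1299 (27.6 to 34.4%), while library 1 held 97.0% (88.1 to 107%) and 109% (101 to 117%). The shGFP and library 1 levels of A549 were not distinguishable at this depth. METTL3 in the same library 2 stood at 41.7% and 36.9% of its control, a fall of like size. In library 1 METTL3 stood at 41.6 and 45.4% while PMVK was not lower. The fewest reads behind a PMVK value were 311, in library 2 of A549.

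RRBP1 followed the same order with a deeper fall in H1299. Its level in A549 was 680 in shGFP, 800 in library 1 and 259 in library 2. In H1299 it was 544, 548 and 114. The fall in library 2 was 2.62-fold in A549, to 38.1% of the control (95% exact interval 35.2 to 41.2%), and 4.76-fold in H1299, to 21.0% (19.2 to 23.0%). Library 1 of A549 lay above the control at 118% (111 to 125%), and library 1 of H1299 was at 101% (95.4 to 106%). RRBP1 in library 2 of H1299 was the lowest share of control that any of the 3 genes reached. With a single library of each kind in a line, the difference of depth between the lines has no replicate check.

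TXNDC5 had the opposite order: library 1 was low and library 2 near the control. In A549 its level was 664 in shGFP, 293 in library 1 and 700 in library 2. In H1299 it was 947, 267 and 872. Library 1 held 44.0% of the control in A549 (95% exact interval 40.6 to 47.6%) and 28.2% in H1299 (26.4 to 30.0%). Library 2 held 105% (99.5 to 112%) and 92.1% (88.4 to 96.0%). The low library had the highest summed epithelial markers in both lines. In A549 the sums were those given above, and in H1299 they were 1526 in shGFP, 1610 in library 1 and 1189 in library 2. The H1299 sum rests on KRT8 and KRT18, as KRT19, EPCAM and CDH1 reached at most 1.1 there. Summed mesenchymal markers (VIM, CDH2 and ZEB1) were lowest in library 1 of A549, at 7809, 7259 and 7753 (shGFP, library 1, library 2). In H1299 they were highest in library 1, at 15466, 17921 and 14050. Over tested genes, the median log2 ratio of H1299 library 1 to shGFP was 0.09. The part of these markers in the levels of TXNDC5, PMVK and RRBP1 was not tested.

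The TXNDC5 level has to be read with that of an overlapping row, the read-through transcript BLOC1S5-TXNDC5. RefSeq lists it as a noncoding RNA that joins BLOC1S5, a subunit of a complex that forms lysosome-related organelles, to TXNDC5. This row stood at 653, 276 and 678 in A549 and at 804, 229 and 737 in H1299 (shGFP, library 1, library 2). That is 94.4 to 98.2% of the TXNDC5 value in A549 and 84.6 to 85.8% in H1299. The rows may hold the same reads, so they are not 2 independent genes and the split of reads between them is uncertain. The A549 libraries gave BLOC1S5 itself 24.5, 23.9 and 33.4, and the H1299 libraries 24.9, 26.0 and 23.6. BLOC1S5 in library 1 was thus near its control, at 97.8% in A549 and 104% in H1299. Library 2 of A549 held 137% of the control. The ratio of library 1 to library 2 for BLOC1S5 was 0.716 in A549 (exact interval 0.519 to 0.980), in the direction of TXNDC5. In H1299 this ratio was 1.10 (0.846 to 1.43). By limma over both lines, the BLOC1S5 difference between the numbers had an adjusted p of 0.741.

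**Figure D1:**
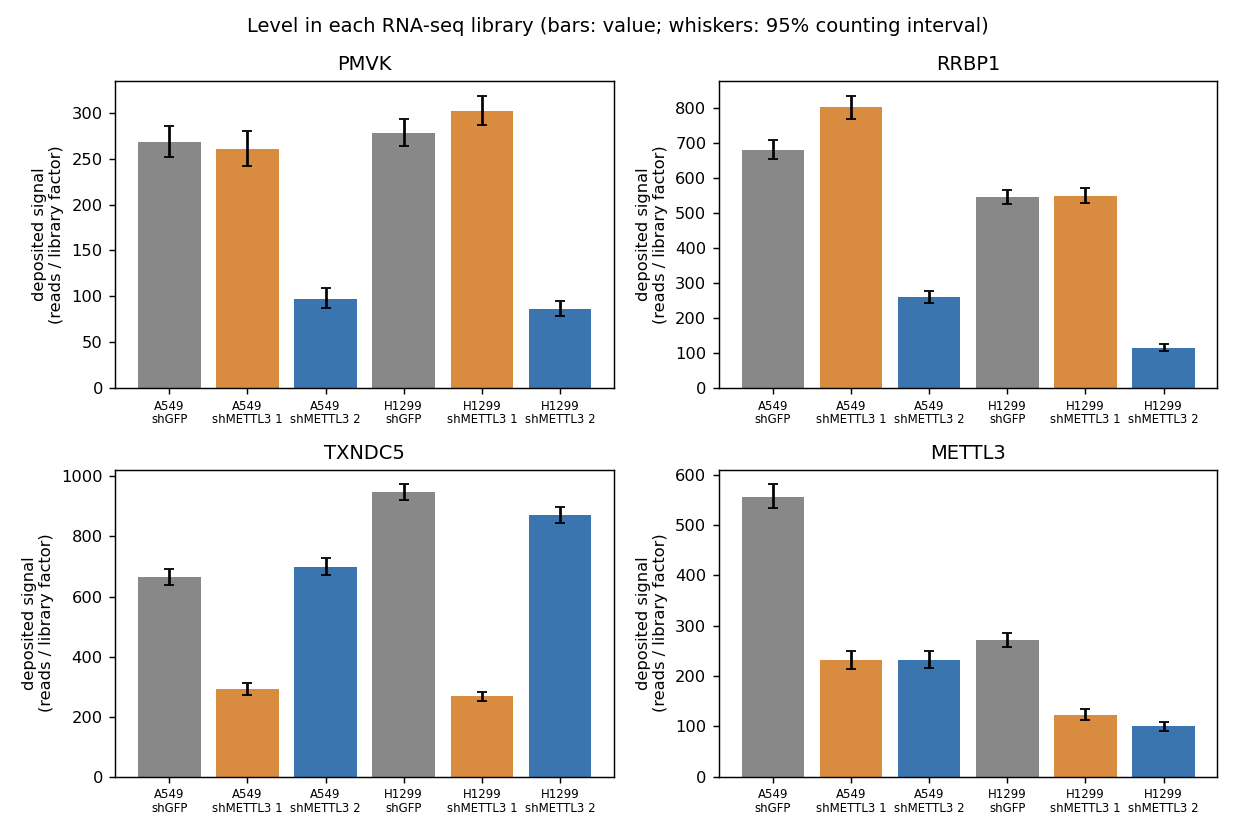
Deposited signal (vertical axis, reads divided by the library factor, from 0) of PMVK, RRBP1, TXNDC5 and METTL3 in the 6 RNA-seq libraries; bars are single libraries and whiskers are 95% exact Poisson intervals of their reads. PMVK and RRBP1 are low in library 2 (97.2 and 85.8 for PMVK), TXNDC5 is low in library 1 (293 and 267), and METTL3 is low in both.

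The ratio between the numbers gives the same picture without the control. Library 1 exceeded library 2 for PMVK by 2.68-fold in A549 (95% exact interval 2.34 to 3.07) and 3.52-fold in H1299 (3.16 to 3.94). For RRBP1 the ratios were 3.09 (2.85 to 3.35) and 4.80 (4.38 to 5.27). For TXNDC5 library 2 exceeded library 1 by 2.39-fold (2.21 to 2.60) and 3.27-fold (3.06 to 3.48). All 3 ratios were larger in H1299 than in A549. This order held with each library centred on the median of its control: the log2 differences were then 1.36 and 1.66 for PMVK, 1.57 and 2.11 for RRBP1, and -1.30 and -1.85 for TXNDC5 (A549 and H1299). Averaged over libraries 1 and 2, as if the numbers were plain replicates, the log2 differences from shGFP in both lines were alike: -0.77 for PMVK, -0.85 for RRBP1 and -0.76 for TXNDC5.

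Among 10098 genes with a mean of at least 20 in each line, differences this large in both lines were few. Library 1 was at least 2-fold above library 2 for 1.68% of them in A549 and 0.990% in H1299. Library 2 was at least 2-fold above library 1 for 0.743% and 0.327%. Ranked by the smaller of the 2 lines' log2 differences, RRBP1 was number 2 and PMVK number 6 of the genes lower in library 2. TXNDC5 was number 4 of the genes lower in library 1, behind its own read-through row at number 3. Over both lines, limma called 8 of 15546 genes (0.0515%) in library 1 against shGFP, and 8 (0.0515%) in library 2 against shGFP. METTL3 was called in both, at log2 -1.20 (SE 0.13, adjusted p = 0.0211) and -1.34 (SE 0.13, adjusted p = 0.0158). With no filter or no intensity trend 0 genes were called in either. The ranks of the 3 genes describe how the genes were chosen and support nothing further. The 5th and 95th percentiles of the log2 difference over these genes were -0.54 and 0.62 in A549 and -0.38 and 0.65 in H1299, with medians of 0.00 and 0.13.

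**Figure D2:**
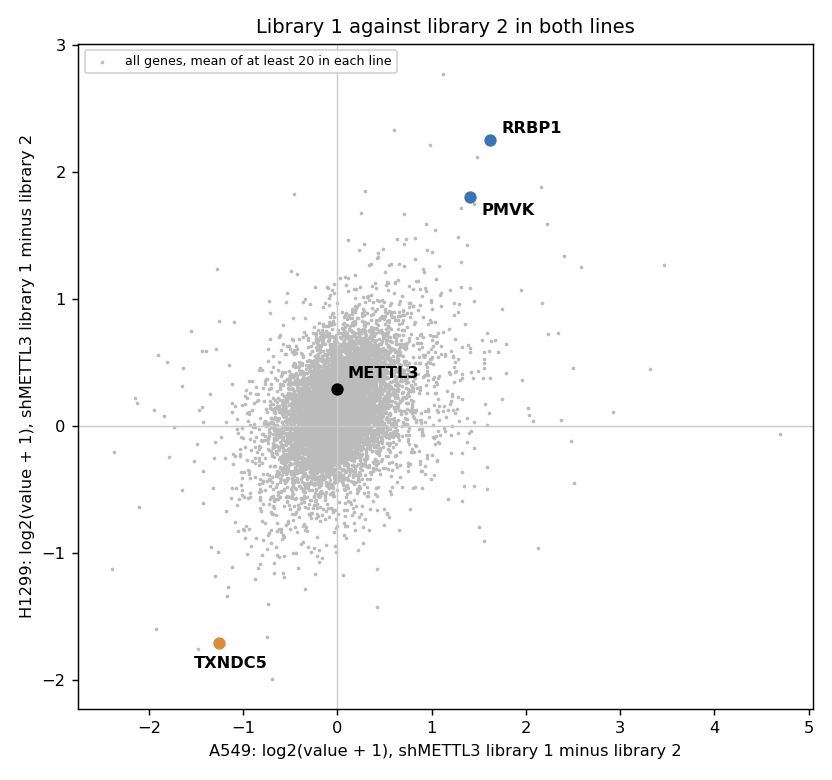
Each point is 1 of 10098 genes; the axes give log2(value + 1) of shMETTL3 library 1 minus library 2 in A549 (horizontal) and in H1299 (vertical). RRBP1 (1.62 and 2.25) and PMVK (1.41 and 1.80) lie far to the upper right, TXNDC5 (-1.26 and -1.70) far to the lower left, and METTL3 (0.00 and 0.29) within the cloud.

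A rule of size asked for genes at least 2-fold below shGFP with 1 number in both lines, and at least 2-fold apart from every value of the other number. It held for 6 genes with library 2 (0.0594% of 10098) and for 4 with library 1 (0.0396%). With library 2 these were PMVK, RRBP1, BCL7B, VWA9, ZEB2 and SCN9A. BCL7B, a subunit of the SWI/SNF chromatin remodeller, stood at 126, 137.5 and 49.7 in A549 and at 195.5, 207 and 60.8 in H1299. VWA9, now named INTS14 and a subunit of the Integrator complex, stood at 61.8, 77.9 and 27.2, and at 35.9, 45.1 and 9.6. ZEB2, a transcription factor that represses epithelial genes, held 47.7 and 47.2% of its control in library 2 of A549 and H1299. The sodium channel SCN9A differed from PMVK in that library 1 was above the control as well, at 213 and 181%.

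With library 1 the rule held for TXNDC5, its read-through row, PPAP2B and SLC7A2. PPAP2B, now named PLPP3, encodes a lipid phosphate phosphatase of the cell surface. It stood at 196, 66.8 and 256 in A549 and at 52.0, 16.0 and 50.4 in H1299. SLC7A2, a transporter of cationic amino acids, stood at 47.9, 18.9 and 54.7, and at 35.1, 14.4 and 51.0. The mirrored rule for rises was met by the matrix protein FN1 with library 1 (0.0099%) and by 0 genes with library 2. With library 1 the order of falls and rises depended on the settings: 4 falls stood against 7 rises at a mean of at least 1, 4 against 5 at a mean of at least 5, and 17 against 21 at 1.5-fold.

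Likeness was measured as the Euclidean distance between genes over their log2 ratios to shGFP in the 4 knockdown libraries. Libraries 1 and 2 of a line share their control, so the 4 ratios are not independent. For PMVK the nearest were BCL7B (distance 0.22), VWA9 (0.53), RRBP1 (0.63), BAG2 (0.64) and TMEM110 (0.68), against a median of 2.22 over all genes. BAG2 is a cochaperone of HSP70, and TMEM110, now named STIMATE, is an ER membrane protein at contacts with the plasma membrane. The nearest to RRBP1 were the same set with PMVK in place of RRBP1: BCL7B (0.59), VWA9 (0.59), PMVK (0.63), TMEM110 (1.01) and BAG2 (1.07). In A549 TMEM110 stood at 131, 131 and 73.4, and in H1299 at 117, 121 and 42.6, a smaller fall than that of PMVK in each line. BAG2 was below its control in library 1 too, at 80.4 and 89.2%, and at 49.3 and 36.9% in library 2.

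For TXNDC5 the nearest gene by distance was its read-through row (0.06). PPAP2B (0.51), MSANTD3 (0.52), PALD1 (0.58) and TFPI (0.67) followed. TFPI, the inhibitor of the tissue factor pathway of blood clotting, held 45.9 and 40.5% of its control in library 1 of A549 and H1299, and 86.6 and 80.1% in library 2. MSANTD3 held 47.2 and 33.0% in library 1, and 79.7 and 105% in library 2. PALD1 held 48.7 and 41.5%, and 107 and 90.0%. These neighbours were chosen for their levels and are described only.

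**Figure D3:**
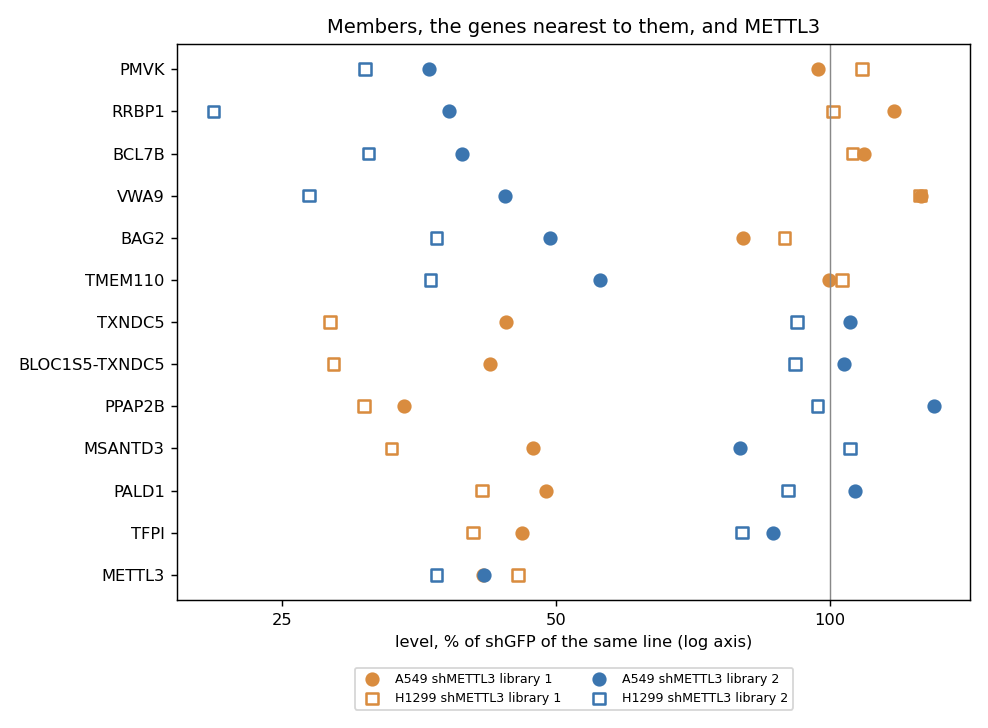
Level as a percentage of shGFP of the same line (log axis) in A549 (filled circles) and H1299 (open squares), library 1 in orange and library 2 in blue, for PMVK, RRBP1, TXNDC5, the 5 genes nearest to each, and METTL3. Library 2 lies left of library 1 for PMVK, RRBP1 and the genes near them, and the order is reversed for TXNDC5 and the genes near it; the A549 points of METTL3 (41.6 and 41.7%) coincide.

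Other genes of the PMVK pathway were tested for a difference between the numbers with limma over all 6 libraries. Of 15546 genes 257 passed (1.65%), 191 of them higher in library 1 (1.23%) and 66 lower (0.425%). With each library centred on the median of its control 214 passed, 100 higher and 114 lower. Leaving out A549 library 1 or 2, or H1299 library 1 or 2, gave 719, 484, 1377 and 761 calls. Of 25 other measured genes of mevalonate and cholesterol synthesis, 2 passed, both lower in library 2: HMGCS1 and LSS. An unadjusted p under 0.05 was found for 12 of the 25, against 18.6% of all genes. The median log2 difference of the 25 genes (library 1 minus library 2) was 0.27, against 0.07 over all genes. In 17 of them library 2 was below library 1 in both lines, as it was for 37.8% of all genes, and in 4 the order was the opposite in both lines (20.7% of all).

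HMGCS1, the synthase that makes the precursor of mevalonate, stood at 996 in A549 shGFP, 1182 in library 1 and 730 in library 2. In H1299 it stood at 220, 340 and 206.6. The log2 difference was 0.71 (SE 0.13, limma adjusted p = 0.0371). Unlike PMVK, HMGCS1 in H1299 was near the control in library 2 and above it in library 1. LSS, which closes the sterol ring, stood at 150, 185 and 112 in A549 and at 292.5, 334 and 219 in H1299. Its log2 difference was 0.66 (SE 0.12, limma adjusted p = 0.0361). Both were smaller than the difference at PMVK, 1.61 over both lines.

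The enzymes next to PMVK in the pathway did not pass. MVK, the kinase before it, stood at 78.2, 75.7 and 52.5 in A549 and at 71.2, 70.2 and 64.8 in H1299 (log2 difference 0.32, SE 0.17, limma adjusted p = 0.355). MVD, the decarboxylase after it, stood at 224, 258 and 220 and at 518, 559 and 456 (0.26, SE 0.11, adjusted p = 0.253). NSDHL, an enzyme of late sterol synthesis, at -0.20, and SCAP, the escort of the sterol-sensing transcription factors, at -0.13 were the furthest on the other side. The transcription factor SREBF2 stood at 0.37 (adjusted p = 0.289).

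Of 35 other measured genes for ribosome binding, targeting and translocation at the ER, the group of RRBP1, 1 passed and was lower in library 2. Over all genes 1.65% passed. The gene called was STT3A, the catalytic subunit of the oligosaccharyltransferase that acts at the translocon. STT3A stood at 408 in A549 shGFP, 425 in library 1 and 263 in library 2, and at 205.5, 237 and 116 in H1299. Library 2 was thus the lowest in both lines, as for RRBP1 (log2 difference 0.86, SE 0.13, limma adjusted p = 0.0238). Of the 35, 4 had an unadjusted p under 0.05, against 18.6% of all genes. The group's median was 0.10, against 0.07 over all genes. TRAM1, a translocon-associated protein, had 0.54 (SE 0.12, adjusted p = 0.0580). The signal peptidase subunits SEC11C (-0.21) and SPCS1 (-0.15) were the furthest on the other side.

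Genes with roles near that of RRBP1 did not pass. The kinectin gene KTN1, whose product is a related coiled-coil protein of the ER membrane, stood at 373, 391 and 403 in A549 and at 241, 263 and 186 in H1299 (log2 difference 0.23, limma adjusted p = 0.450). CKAP4, a protein that shapes ER sheets, stood at 1212, 1217 and 1022 and at 735, 683 and 684 (0.13, adjusted p = 0.590). STT3B, the paralogue of STT3A, had 0.02 (adjusted p = 0.959), and the channel subunit SEC61A1 0.03 (adjusted p = 0.929).

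Of 21 other measured genes of the protein disulfide isomerase family and ER thiol oxidation, the group of TXNDC5, 0 passed by limma, and 4 had an unadjusted p under 0.05 (18.6% of all genes did). The group's median was 0.13. On the side of TXNDC5, lower in library 1, lay ERO1L and QSOX2, both thiol oxidases. ERO1L stood at 936, 645 and 1190 in A549 and at 187, 152 and 165 in H1299 (log2 difference -0.50, SE 0.17, adjusted p = 0.170). QSOX2 stood at 829, 563 and 744 and at 576.5, 373 and 516 (-0.44, SE 0.10, adjusted p = 0.0731). On the other side lay ERP44, which retrieves proteins to the ER, at 0.45 (adjusted p = 0.0976) and the oxidase QSOX1 at 0.42 (0.168).

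The abundant isomerases did not pass either. P4HB, the founding member of the family, stood at 6535, 6770 and 6324 in A549 and at 3526, 3617 and 3387 in H1299. PDIA4 stood at 2186, 1908 and 1895, and at 1567, 1614 and 1353. Of 20 genes of ER chaperones and the unfolded protein response (the cell's answer to misfolded ER proteins), 0 passed by limma and 1, the stress sensor kinase ERN1, had an unadjusted p under 0.05. Over all genes the latter share was 18.6%. ERN1 had a log2 difference of -0.38 (SE 0.16, adjusted p = 0.254), HERPUD1 -0.29, CRELD2 0.33 and CALR 0.29. The chaperone HSPA5 stood at 5057, 4402 and 4779 in A549 and at 2818, 2897 and 2550 in H1299.

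**Figure D4:**
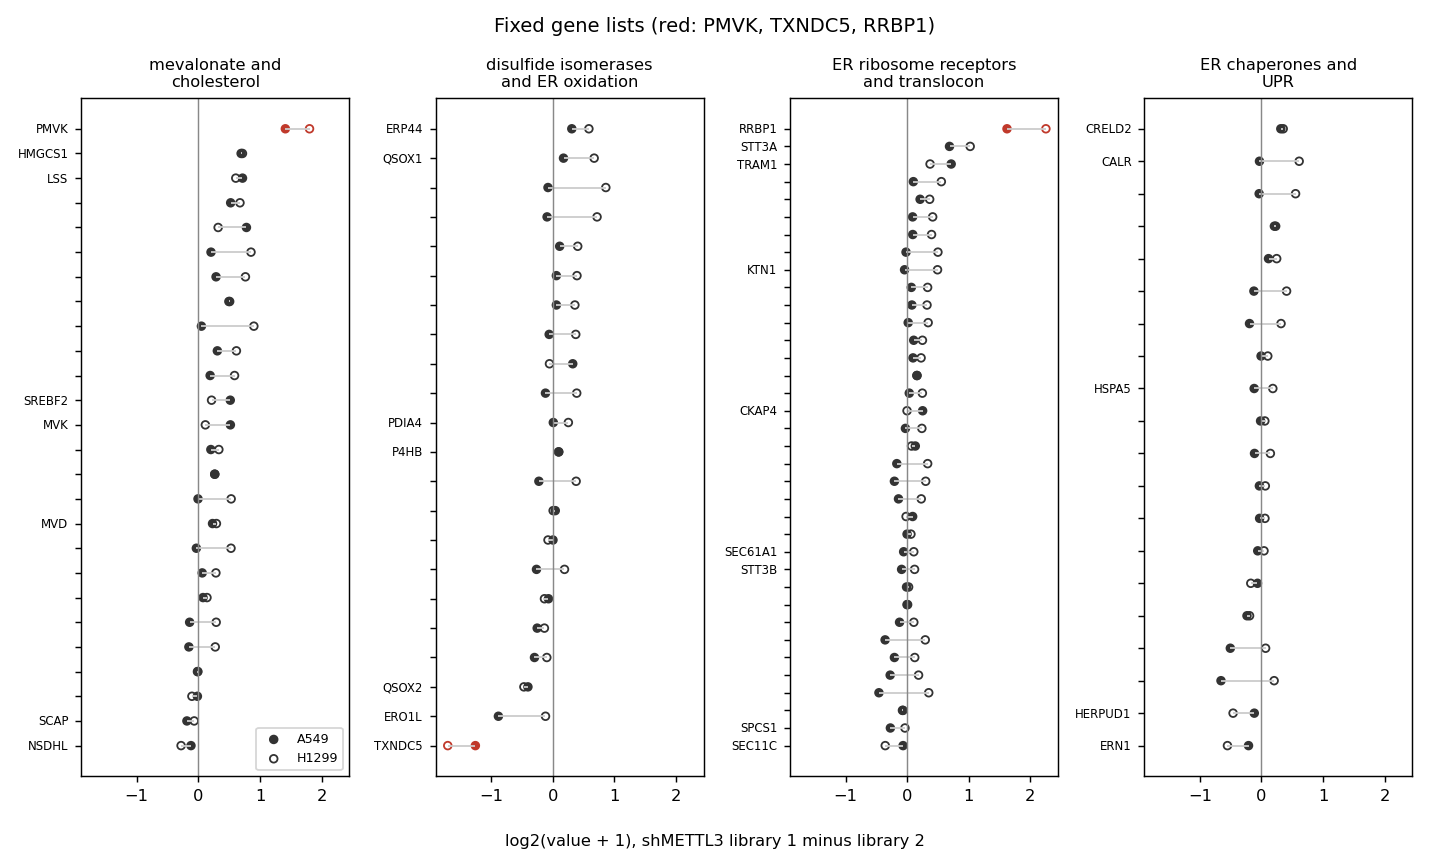
Log2(value + 1) of shMETTL3 library 1 minus library 2 (horizontal axis) in A549 (filled) and H1299 (open) for each measured gene of 4 lists, 1 gene per line, with the genes of the text named; UPR is the unfolded protein response. PMVK, TXNDC5 and RRBP1 (red) lie beyond every other gene of their lists in both lines. STT3A (0.69 and 1.02) is nearest to RRBP1 in H1299, and TRAM1 (0.72) in A549.

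When the numbers were taken as replicates, shMETTL3 against shGFP in both lines gave 0 of 15546 genes past the threshold by limma (0%), and 374 with an unadjusted p under 0.05. edgeR, run on the recovered reads of A549 alone, also gave 0 calls, with 111 of 16263 genes at an unadjusted p under 0.05. None of the 4 lists therefore had a called gene in this comparison. Their medians were 0.07 for mevalonate and cholesterol synthesis, 0.00 for disulfide isomerases, 0.07 for the translocon group and -0.03 for ER chaperones, against 0.01 over all genes.

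The chromosomal neighbours were read from the order of genes in RefSeq. PBXIP1, which follows PMVK, passed between the numbers: it stood at 258, 370 and 222 in A549 and at 298, 387 and 277 in H1299 (log2 difference 0.61, SE 0.12, limma adjusted p = 0.0450). PBXIP1 held 86.2 and 92.9% of its control in library 2 of A549 and H1299, against 36.2 and 30.8% for PMVK, and 144 and 130% in library 1. KCNN3, on the other side of PMVK, had few reads (adjusted p = 0.955). DSTN, an actin-depolymerising factor beside RRBP1, stood at 2257, 2494 and 1900 and at 298, 367 and 224 (0.55, SE 0.12, adjusted p = 0.0547). SNX5, on its other side, had -0.09 (adjusted p = 0.726). BMP6, beside TXNDC5, had -0.34 (adjusted p = 0.297), and the pseudogene PIP5K1P1 0.08 with few reads.

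The 4 calls among these tested genes were near the threshold. With median centring STT3A still passed (adjusted p = 0.0323) while HMGCS1 (0.0534), LSS (0.0618) and PBXIP1 (0.0829) did not. Without A549 library 2 only STT3A passed (adjusted p = 0.000798, against 0.0502 for HMGCS1, 0.0540 for LSS and 0.130 for PBXIP1), and none of the 4 did with no filter on low values (0.0603 to 0.0941) or with no intensity trend (0.166 to 0.184).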

How the data were processed

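RNA-seq gave 6 libraries, 1 shGFP and shMETTL3 libraries 1 and 2 in each of A549 and H1299. The deposited tables give each gene a signal in each library. Every value (100%) fitted a whole number of reads over 1 factor per library. These factors were inferred from the values and were 3.8, 2.8 and 3.2 in A549 (shGFP, 1, 2) and 5.1, 4.5 and 5.0 in H1299. With 1 decimal in H1299, 44.9 to 51.0% of arbitrary values would fit too, and so no test was run on reads there. They serve only for counting intervals, library totals, the RNA45S5 share and the scaling to reads outside RNA45S5. TopHat, Bowtie and hg19 come from the submitters' processing notes, while the counter, its annotation and strand setting, and what the factors rest on are not given in the sources used here. By their number, A549 knockdown columns named shMEL were assigned to samples. Peak lists on hg19 and input samples were not used here, because no gene model of that build was at hand to place peaks on these genes.

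Differences are on the log2(value + 1) scale, where changes of weakly expressed genes look smaller. limma 3.58.1 in R 4.3.3 (intensity trend, Benjamini-Hochberg adjusted p under 0.05) was fitted to all genes with a mean of at least 1 in each line: line plus a term for each number (2 residual degrees of freedom), or line plus knockdown (3), and within a line (1), with the single control taken to vary as the knockdown libraries do. edgeR 4.0.16 on A549 reads was added after seeing the data. The code was tested on simulated data. Genes named are METTL3, PMVK, RRBP1, TXNDC5, the 5 nearest to each of the latter, and those meeting the size rule. Neighbours with a row in both tables (and BLOC1S5) are named too, and in each list the called genes and the 2 furthest on each side. MVK, MVD, SREBF2, STT3B, SEC61A1, KTN1, CKAP4, P4HB, PDIA4 and HSPA5 were added for their role after their values were seen. Genes and lists were chosen with earlier results of these data known. A gene of the mevalonate list and a leukocyte marker are not reported here. Spreadsheet dates in place of 27 (A549) and 25 (H1299) names, and repeated names, were left out across lines. All 3 genes matched RefSeq by symbol.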

Additional observations from a re-analysis of the deposited data

Results flagged for a closer look

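PIP5K1P1, a pseudogene beside TXNDC5, was above shGFP in both A549 knockdown libraries (mean log2 change 0.31) and below it in both H1299 libraries (-0.80). It stood at 5.00, 5.71 and 7.19 in A549 and at 5.1, 3.1 and 2.0 in H1299 (shGFP, library 1, library 2). SCAP, of the sterol-sensing machinery, was likewise above the control in both A549 libraries (0.11) and below it in both H1299 libraries (-0.058), at 543, 551 and 627, and at 589, 553 and 579. SCAP was close to the control in A549 library 1 (101%) and in H1299 library 2 (98.3%), and PIP5K1P1 had few reads. The difference between the lines was not tested for either gene.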

How the results depend on the processing

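PMVK, RRBP1 and TXNDC5 kept their direction and met the size rule under every alternative to it that was run. These were a mean of at least 1 or 5, 1.5-fold, a pseudocount of 0.1 and median centring. The lower means and the 1.5-fold cut only loosen the rule, so genes that met it could not fail them. PMVK, RRBP1 and TXNDC5 were also chosen by these levels, so meeting the rule supports nothing further. Their log2 differences between the numbers ranged from 1.36 to 1.42 (PMVK, A549), 1.66 to 1.82 (PMVK, H1299), 1.57 to 1.63 and 2.11 to 2.26 (RRBP1), and -1.30 to -1.26 and -1.85 to -1.70 (TXNDC5). Values outside the counting interval were, in H1299, RRBP1 (2.11) and TXNDC5 (-1.85) with median centring, and TXNDC5 (-1.81) scaled to the reads outside RNA45S5, which was added after seeing the data.

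The counts of called genes moved more, and the cause was not tested. Between the numbers, 257 calls became 39 with no filter, 0 with no intensity trend (2545 at an unadjusted p under 0.05) and 407 at a mean of at least 20 (added later). Leaving out 1 library gave 484 (A549 library 2) to 1377 (H1299 library 1), with 719 without A549 library 1 and 761 without H1299 library 2. Library 1 against shGFP gave 8 calls, and 0 with no filter or no trend; leaving out 1 library gave 62 to 517. Library 2 against shGFP gave 8 calls, and 0 with no filter or no trend; leaving out 1 library gave 118 to 186. These libraries leave 1 residual degree of freedom when 1 is dropped. Knockdown in both lines went from 0 to 1 call with median centring, and to 1 with the library number as a replicate block. Only 2 pairs carry the numbers, and the differences between numbers correlated between the lines at r = 0.24 across all tested genes and 0.37 across those with a mean of at least 20; genes are not independent replicates, and the labels do not say what a number shares. No paired analysis was possible within a line because shGFP has 1 library. Knockdown within A549 or H1299 gave 0 calls under all alternatives run. By the size rule, rises with library 1 went from 1 to 7 genes (mean of at least 1), 5 (mean of at least 5), 21 (1.5-fold) and 2 (pseudocount 0.1). Rises with library 2 went from 0 to 1, 1 and 5 under the former 3. Falls went from 4 to 17 with library 1 and from 6 to 35 with library 2 at 1.5-fold. Peaks at or above the median score were not run, since no peak was placed on these genes.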
